A study of Mus musculus with 12 samples.

Results

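The 31 genes described here encode regulators of mTORC1 (the mechanistic target of rapamycin complex that couples growth to nutrients), the TFE family of transcription factors, and proteins of the lysosome. They were chosen by name, as the rows of the count table whose gene identifiers map to these 31 symbols, out of 55487 genes in all. Polyadenylated RNA was sequenced from clones of the male mouse embryonic stem cell line E14 Tg2a. Knockout (KO) cells were 3 independent clones made Pcbp1-ko, and control cells, WT in the sample labels and Scr in the series text, were 3 independent clones. Each clone was grown as naive cells, in serum-free N2B27 medium with LIF, the MEK inhibitor PD0325901 and the GSK3 inhibitor CHIR99021. Each was also converted for 48 h to epiblast-like cells (EpiLCs) on fibronectin with bFGF, activin A and KOSR, which gave the groups EpiLC KO, EpiLC WT, naive KO and naive WT with 3 libraries each. PCBP1 is an RNA-binding protein, and the comparisons ask what its loss does to each cell state and to the conversion between them. The labels do not give the position of the edit.

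As background, mTORC1 is recruited to the lysosome surface by Rag GTPases when amino acids are present and is switched on there by the GTPase RHEB. The TSC complex restrains RHEB, sestrins and CASTOR proteins report leucine and arginine, and folliculin (FLCN) with its FNIP partners acts on RagC and RagD. Active mTORC1 keeps TFEB, TFE3 and MITF in the cytoplasm, and when they enter the nucleus they bind E-boxes in the promoters of lysosome genes. In mouse embryonic stem cells, folliculin is known to keep TFE3 out of the nucleus so that cells can leave naive pluripotency.

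Libraries held between 27146744 and 42204511 counted reads, and all 31 genes passed the filter that left 18134 genes. Levels are given as CPM, counts scaled to library size with edgeR's TMM factors. Differences between groups are log2 fold changes with their standard error (SE). A gene was called when its adjusted p, from edgeR's quasi-likelihood test with Benjamini-Hochberg adjustment over all 18134 genes, was under 0.05. Pcbp1 had 250.3, 301.8 and 264.9 CPM in EpiLC KO and 692.1, 511.9 and 591.5 CPM in EpiLC WT, and it was lower in KO clones also in naive culture (302.9 CPM at most in naive KO, 417.9 CPM at least in naive WT). All 8 formative markers rose in EpiLCs of both genotypes, and naive markers fell (11 of 11 in KO clones, 10 of 11 in WT clones). EpiLC WT replicate 2 stood apart, with 788.8 CPM summed over the naive markers against 244.4 and 244.9 CPM in the other EpiLC WT libraries. In EpiLCs, 8 of 9 endoderm markers tested were higher in KO. Summed over all 12 listed markers, they had 61.1 to 93.5 CPM in EpiLC KO and at most 23.9 CPM in EpiLC WT. Lama1 averaged 41 CPM of this sum in EpiLC KO and 6.88 CPM in EpiLC WT. The naive sums were higher, 327.4 to 584.7 CPM in KO and 240.8 to 284.3 CPM in WT. Most of them was Lama1, with means of 431.4 CPM in naive KO and 260.7 CPM in naive WT. Of 7 markers of macrophages, a cell type rich in lysosomes, Adgre1 and Aif1 were at 0 in every naive library and Lyz2 was at 0 in all 12 libraries. In EpiLCs Adgre1 reached at most 0.0264 CPM and Aif1 at most 0.0563 CPM. Csf1r was at most 0.0641 CPM and Ptprc at most 0.253 CPM in any library. Cd68 made up most of their sum, with 10.8 ± 1.79 CPM in EpiLC KO and 22.5 ± 2.9 CPM in EpiLC WT (SD, n = 3), and was lower in EpiLC KO (-1.06 ± 0.176, edgeR adjusted p 0.00244). Itgam had 1.55 to 2.71 CPM in EpiLC KO and 1.61 to 1.96 CPM in EpiLC WT, against at most 0.106 CPM in any naive library, and rose in both genotypes (adjusted p 2.88e-06 in KO clones and 1.15e-05 in WT clones). The summed macrophage markers reached 12.2 to 14.6 CPM in EpiLC KO, 22.4 to 27.7 CPM in EpiLC WT, 12 to 15.2 CPM in naive KO and 14.2 to 19 CPM in naive WT. In bulk RNA, fewer cells of a type and less RNA per cell cannot be told apart.

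Most of the lysosome genes were lower in EpiLCs than in naive cells, and the TFE factors moved in opposite directions. Of the 31 genes, 18 fell and 5 rose in KO clones, where 28.1% of all genes tested fell, 27.1% rose and 55.2% were called in either direction. In WT clones 15 fell and 6 rose, where 26.3% of all genes fell, 26.4% rose and 52.7% were called in either direction. The median log2 fold change of the 31 genes was -0.48 in KO clones and -0.23 in WT clones, and over all genes it was -0.04 and -0.01. Other genes moved between the same cultures, and their part in these values was not tested. Of 9 stress and RNA quality genes, 2 rose and 3 fell in KO clones and 1 rose and 4 fell in WT clones, with the immediate early gene Egr1 at 4.74 ± 0.509 and 3.82 ± 0.496 and the nuclear RNA Neat1 at -2.65 ± 0.313 and -1.18 ± 0.299 (KO clones before WT clones). The summed fibroblast and feeder markers were at 19.2 to 33.4 CPM in EpiLC KO against 8.55 to 12 CPM in naive KO, and at 10 to 20 CPM in EpiLC WT against 11.4 to 14.6 CPM in naive WT. The summed trophoblast markers were at 49.4 to 64.4 CPM in EpiLC KO against 101.0 to 128.5 CPM in naive KO, and at 104.9 to 122.5 CPM in EpiLC WT against 85.2 to 107.8 CPM in naive WT. Of the tested genes of these lists, 3 of 5 and 4 of 7 rose in each genotype and 2 of each list fell. In the trophoblast list Krt18, a keratin of simple epithelia, rose by 5.09 ± 0.315 and 5.23 ± 0.299. Tfap2c of the same list fell (-5.49 ± 0.302 and -5.32 ± 0.305). It made up most of the naive trophoblast sums, with means of 105.0 CPM in naive KO and 83.2 CPM in naive WT. The heat map of the members shows every gene in every library by role.

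**Figure D1:**
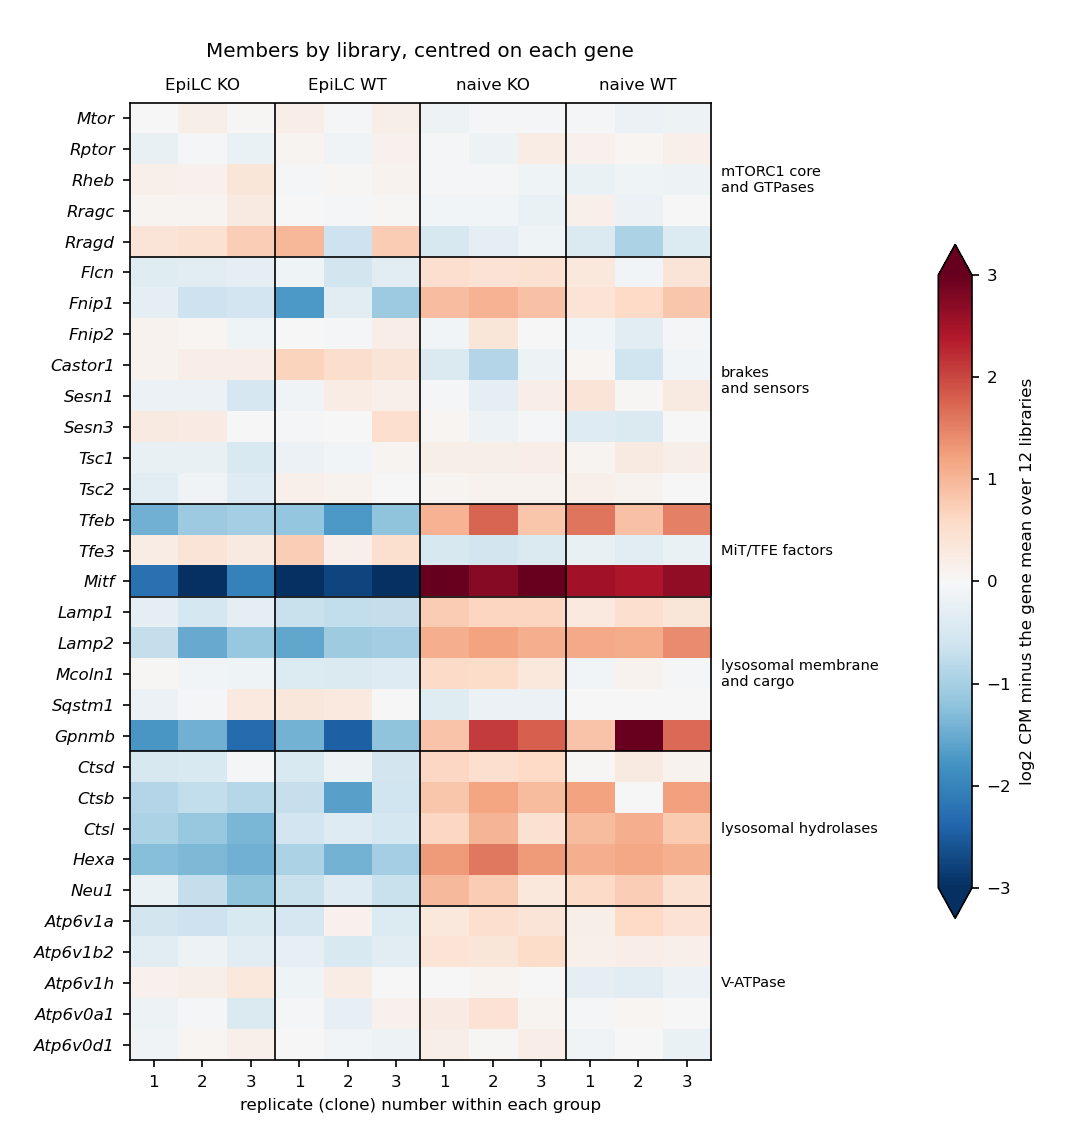
Colour gives log2 CPM minus the mean of each gene over the 12 libraries, with 1 row per gene grouped by role and 1 column per library. Mitf, Tfeb, Gpnmb, Hexa and Lamp2 are red in the naive libraries on the right and blue in the EpiLC libraries on the left, and Tfe3 and Rragd run the other way, apart from Rragd in EpiLC WT replicate 2.

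Mitf had the largest change of the 31 genes in both genotypes. This factor, best known from pigment cells, had 2.5, 1.43 and 2.9 CPM in EpiLC KO against 94.4, 78.1 and 104.9 CPM in naive KO. In WT clones it had 1.42, 1.76 and 1.2 CPM in EpiLCs against 67.4, 63.2 and 74.5 CPM in naive cells. The gene lies at chr6:97807052-98021349 (GRCm38). Every EpiLC library had under 3 CPM, and none came near a naive library. The fall was 40.6-fold in KO clones (log2 fold change -5.34 ± 0.239, SE, edgeR adjusted p 5.81e-09) and 47-fold in WT clones (-5.55 ± 0.248, adjusted p 6.29e-09).

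Tfeb (chr17:47737030-47792419), known as a master regulator of lysosome genes, had 6.59, 8.35 and 8.79 CPM in EpiLC KO against 36.9, 60.1 and 31.7 CPM in naive KO. In WT clones it had 8.06, 5.45 and 7.81 CPM in EpiLCs against 54.9, 33.1 and 51 CPM in naive cells. The EpiLC and naive libraries did not overlap in either genotype, and the naive libraries were spread between 31.7 and 60.1 CPM. Tfeb fell 5.43-fold in KO clones (-2.44 ± 0.269, edgeR adjusted p 8.99e-06) and 6.5-fold in WT clones (-2.70 ± 0.273, adjusted p 5.25e-06). The 50 nearest expressed genes on chromosome 17 differed between clones, in the direction of Tfeb in some libraries and against it in others. Relative to the mean of their culture, their median log2 level was 0.42 in naive KO replicate 2 and -0.23 in naive KO replicate 3, where Tfeb was at 0.47 and -0.45. It was 0.14 in naive KO replicate 1 and -0.25 in EpiLC KO replicate 3, where Tfeb was at -0.23 and 0.24.

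Tfe3 (chrX:7762560-7775202), the member tied to exit from naive pluripotency, rose. It had 178.4, 198.5 and 181.4 CPM in EpiLC KO against 109.3, 103.1 and 111.7 CPM in naive KO, and 253.3, 169.7 and 210.7 CPM in EpiLC WT against 129.1, 118.9 and 131.8 CPM in naive WT. The lowest EpiLC library in each genotype lay above the highest naive library. The rise was 1.72-fold in KO clones (0.78 ± 0.124, edgeR adjusted p 0.000165) and 1.67-fold in WT clones (0.74 ± 0.124, adjusted p 0.000291).

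Per length of exon (RPKM), the 3 members were nearer to each other in naive cells than in EpiLCs. Of the summed RPKM of the MiT/TFE family, Tfec included, Tfe3 made up 91.5% ± 0.903 in EpiLC KO and 34.2% ± 1.52 in naive KO (SD, n = 3). It made up 93.8% ± 0.417 in EpiLC WT and 41.7% ± 2.34 in naive WT. Mitf made up 1.69% ± 0.622 in EpiLC KO and 43.7% ± 6.3 in naive KO, and 1.01% ± 0.378 in EpiLC WT and 33.7% ± 1.94 in naive WT. Tfeb made up 6.35% ± 0.803 in EpiLC KO and 22.1% ± 7.72 in naive KO, and 5.16% ± 0.438 in EpiLC WT and 24.6% ± 4 in naive WT. The sum of the family was 22 ± 1.22 RPKM in EpiLC KO, 34.2 ± 0.544 RPKM in naive KO, 24.3 ± 4.71 RPKM in EpiLC WT and 32.9 ± 3.48 RPKM in naive WT. Tfec, the remaining family member, was at 0 in all WT libraries and averaged 0.0957 RPKM in EpiLC KO.

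**Figure D2:**
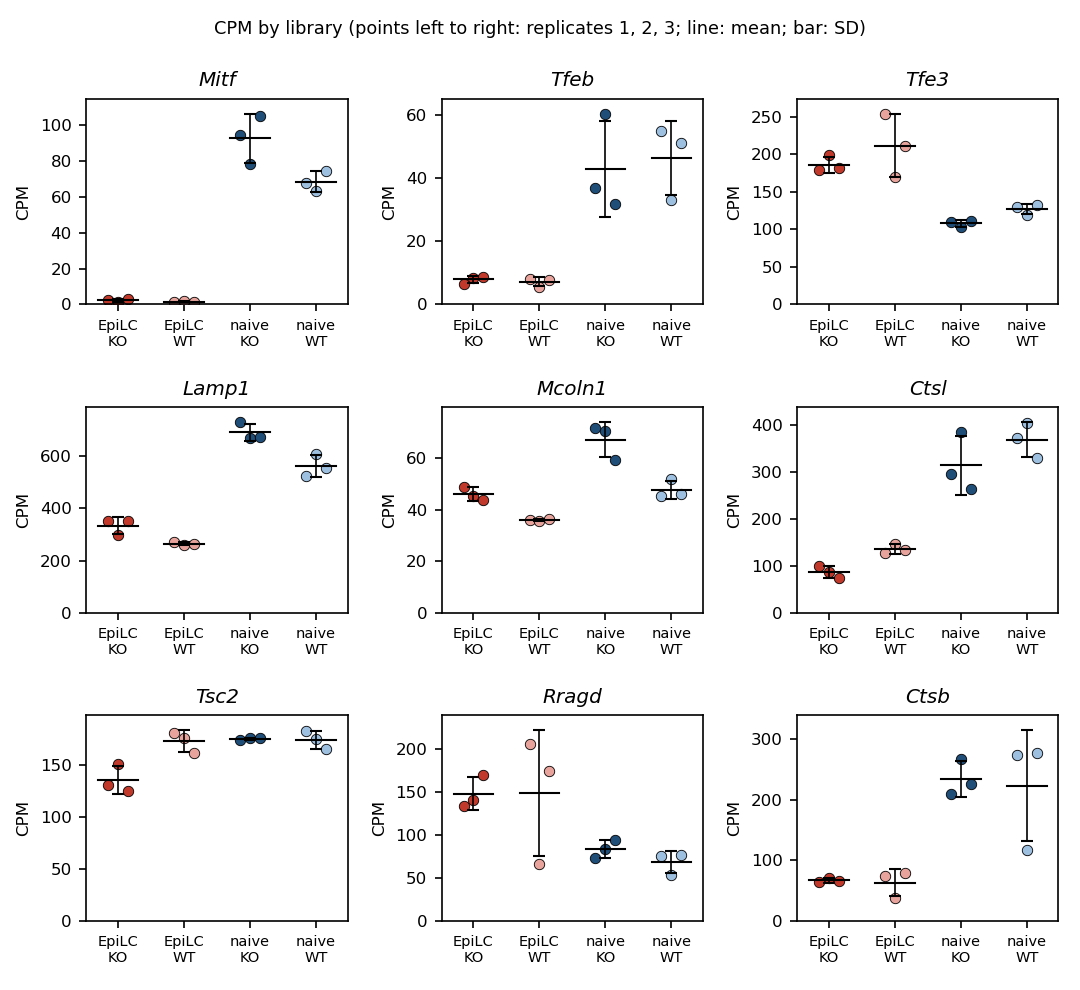
Each panel gives the CPM of 1 gene in every library, with the groups EpiLC KO, EpiLC WT, naive KO and naive WT in that order, points for replicates 1 to 3, a line at the mean and a bar for the SD (n = 3). Mitf and Tfeb stay under 10 CPM in all EpiLC libraries, Tfe3 is above 160 CPM there, and Rragd and Ctsb each have a low replicate 2 in WT.

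The E-box CACGTG that these factors bind can be read in promoters. Windows of 250 bases before to 50 bases after the start were taken from RefSeq (GRCm38.p6), and 28 of the 31 genes matched. There is no entry for Atp6v1h, Atp6v1b2 and Ctsb. CACGTG, which reads the same on both strands, stood in 9 of the 28 genes (32.1%), against 8.09% of all genes in the table and 11.2% of the genes tested. The longer form TCACGTGA, which contains it, stood in 4 of 28 (14.3%), against 1.12% of all genes and 1.94% of the genes tested. In related lists that hold no member, CACGTG stood in 28.1% of other lysosomal hydrolases and 18.8% of other lysosomal membrane proteins. The share was 16.7% for other mTORC1 partners, 15.4% for autophagy genes and 12.5% for other V-ATPase subunits. TCACGTGA stood in 0% to 12.5% of the genes of these lists. By window, 9 of 34 member windows held CACGTG (26.5%), against 7.15% of all windows and 9.46% of windows of genes tested. The stretches of 80 bases below show CACGTG in 6 of the 9 genes. They run 5′ to 3′ on the strand of the gene, with CACGTG or TCACGTGA in capitals.

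Mcoln1 (chr8:3500424-3500503, plus strand): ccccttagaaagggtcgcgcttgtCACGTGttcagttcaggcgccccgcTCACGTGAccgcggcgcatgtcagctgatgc
Lamp1 (chr8:13159086-13159165, plus strand): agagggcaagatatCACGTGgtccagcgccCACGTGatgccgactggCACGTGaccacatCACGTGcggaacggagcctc
Ctsd (chr7:142387883-142387962, minus strand): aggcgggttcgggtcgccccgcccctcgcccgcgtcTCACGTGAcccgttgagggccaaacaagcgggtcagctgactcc
Ctsl (chr13:64370691-64370770, minus strand): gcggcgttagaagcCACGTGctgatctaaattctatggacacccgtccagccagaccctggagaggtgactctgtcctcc
Atp6v1a (chr16:44139348-44139427, minus strand): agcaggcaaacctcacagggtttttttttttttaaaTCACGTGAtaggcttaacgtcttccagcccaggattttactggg
Atp6v0d1 (chr8:105566025-105566104, minus strand): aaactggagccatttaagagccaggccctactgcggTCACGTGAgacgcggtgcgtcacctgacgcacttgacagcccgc

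Lamp1 carried 4 copies of CACGTG within this stretch, the nearest of them 15 bases before the start, and Mcoln1 carried 2. Ctsd carried another copy outside its stretch, 245 bases before the start. Fnip1, Rheb and Rragc were the other genes with CACGTG, and Tfeb, Tfe3 and Mitf had none in their windows. A match is a description of the letters and shows no binding. The direction in EpiLCs was not the same for all 9: Lamp1, Mcoln1, Ctsd, Ctsl, Atp6v1a and Fnip1 fell in both genotypes, Rheb and Rragc rose in KO clones, and Atp6v0d1 passed in neither (-0.09 ± 0.0997 in KO clones, 0.02 ± 0.0999 in WT clones).

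All 5 lysosomal hydrolases among the members fell in EpiLCs of both genotypes. Hexa, the alpha subunit of beta-hexosaminidase, which degrades the ganglioside GM2, had 36, 34.5 and 32.3 CPM in EpiLC KO against 211.1, 261.5 and 213.4 CPM in naive KO. In WT clones it had 45.2, 32.7 and 43.4 CPM in EpiLCs against 186.0, 195.3 and 183.9 CPM in naive cells. The 2 cultures were far from overlapping, with a fall of 6.67-fold in KO clones (-2.74 ± 0.133, edgeR adjusted p 1.19e-08) and of 4.66-fold in WT clones (-2.22 ± 0.13, adjusted p 5.96e-08).

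Ctsl, the cysteine protease cathepsin L, had 99, 87 and 74 CPM in EpiLC KO against 294.5, 383.9 and 262.4 CPM in naive KO, and 127.6, 146.3 and 132.5 CPM in EpiLC WT against 371.0, 403.9 and 330.2 CPM in naive WT. It fell in both (-1.86 ± 0.149 in KO clones and -1.44 ± 0.147 in WT clones, edgeR adjusted p 6.88e-07 and 5.68e-06). Ctsb, cathepsin B, had 63.6, 71.2 and 65.3 CPM in EpiLC KO against 208.8, 267.1 and 226.1 CPM in naive KO, and 73.4, 37.9 and 78.1 CPM in EpiLC WT against 273.3, 117.0 and 278.0 CPM in naive WT. WT replicate 2 was the lowest of its group in both cultures. In that clone the 50 nearest expressed genes on chromosome 14 had a median log2 level of -0.83 relative to the EpiLC mean and of -0.84 relative to the naive mean, while the medians of the other 10 libraries lay between 0.13 and 0.18. Within each clone Ctsb was lower in EpiLCs, and the fall was 3.51-fold in KO clones (-1.81 ± 0.307, adjusted p 0.000291) and 3.52-fold in WT clones (-1.82 ± 0.308, adjusted p 0.000319).

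Ctsd, the aspartic protease cathepsin D, fell in both (-0.89 ± 0.135 in KO clones and -0.52 ± 0.134 in WT clones, edgeR adjusted p 0.000115 and 0.00575). It averaged 118.9 ± 20.7 CPM in EpiLC KO and 221.0 ± 10.8 CPM in naive KO (SD, n = 3), and 113.9 ± 17.2 CPM in EpiLC WT and 163.2 ± 14.4 CPM in naive WT. Neu1, the sialidase that is mutated in sialidosis, fell in both (-1.35 ± 0.231 in KO clones and -1.17 ± 0.23 in WT clones, adjusted p 0.000303 and 0.000977), with 16.3 ± 5.66 CPM in EpiLC KO, 41.8 ± 9.29 CPM in naive KO, 17.3 ± 1.89 CPM in EpiLC WT and 38.8 ± 3.68 CPM in naive WT. Relative to the naive mean, the 50 nearest expressed genes of Neu1 had medians of 0.22 and -0.17 in KO replicates 1 and 3, where Neu1 was at 0.33 and -0.33. In EpiLCs these medians were 0.18 and -0.17, where Neu1 was at 0.44 and -0.57. In naive KO replicate 2 the median was -0.11 and Neu1 was at 0.13. Parts of the hydrolase genes overlap others on the genome, and reads in shared exons were left uncounted under the counting defaults. The shared share of exon bases is 34.37% for Ctsd, 26.85% for Ctsl with an antisense gene, 12.79% for Ctsb and 12.78% for Hexa.

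Of the 5 genes of the lysosomal membrane and its cargo, 4 fell in both genotypes. Lamp1, the most abundant glycoprotein of its membrane, had the highest RPKM of the 31 genes in every group. It had 351.9, 296.5 and 353.4 CPM in EpiLC KO against 731.0, 672.3 and 675.3 CPM in naive KO, and 270.6, 258.6 and 264.1 CPM in EpiLC WT against 524.8, 607.5 and 556.5 CPM in naive WT. Each EpiLC library had fewer CPM than any naive library, and the fall was 2.07-fold in KO clones (-1.05 ± 0.0901, edgeR adjusted p 1.12e-06) and 2.13-fold in WT clones (-1.09 ± 0.0903, adjusted p 9.84e-07).

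Lamp2, whose protein also serves chaperone-mediated autophagy, fell further, 4.6-fold in KO clones (-2.20 ± 0.192, edgeR adjusted p 1.34e-06) and 5.38-fold in WT clones (-2.43 ± 0.195, adjusted p 7.81e-07). It had 38.5, 22 and 28.6 CPM in EpiLC KO against 132.4, 144.2 and 133.6 CPM in naive KO, and 21.4, 29.7 and 30.5 CPM in EpiLC WT against 137.1, 134.6 and 166.8 CPM in naive WT. Mcoln1, the calcium channel TRPML1, fell in both (-0.55 ± 0.104 in KO clones and -0.41 ± 0.104 in WT clones, adjusted p 0.000639 and 0.00545). It had 49, 45.2 and 43.7 CPM in EpiLC KO against 71.8, 70.5 and 59.5 CPM in naive KO, and 35.9, 35.7 and 36.5 CPM in EpiLC WT against 45.5, 51.8 and 46 CPM in naive WT.

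Gpnmb, a glycoprotein gene known as a target of MITF and TFE3, was the lowest member by RPKM in all 4 groups. It had 0.666, 0.819 and 0.451 CPM in EpiLC KO against 4.04, 9.53 and 7.69 CPM in naive KO, and 0.833, 0.411 and 0.964 CPM in EpiLC WT against 4.07, 21.8 and 7.3 CPM in naive WT. The log2 fold change was -3.45 ± 0.598 in KO clones (edgeR adjusted p 0.000343) and -3.89 ± 0.607 in WT clones (adjusted p 0.000172). Naive WT replicate 2 held the value of 21.8 CPM, and without it the log2 fold change in WT clones was -2.95. Sqstm1, the autophagy receptor p62, had 225.8, 245.8 and 312.1 CPM in EpiLC KO against 198.9, 226.9 and 224.8 CPM in naive KO, and 324.6, 315.0 and 256.9 CPM in EpiLC WT against 258.2, 256.1 and 253.4 CPM in naive WT. The groups overlapped in both genotypes, and it passed in neither (0.27 ± 0.124, adjusted p 0.0828 in KO clones, and 0.22 ± 0.124, adjusted p 0.146 in WT clones). With the clone as a block in the fit, its value in KO clones was 0.26 with an adjusted p of 0.0412, and it passed there also with a filter at a mean CPM of 1 (0.0465) and without EpiLC KO replicate 1 (0.0324).

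The vacuolar proton pump (V-ATPase), which acidifies the lysosome, was split. The V1 catalytic subunit Atp6v1a fell in both (-0.94 ± 0.156 in KO clones and -0.64 ± 0.156 in WT clones, edgeR adjusted p 0.000256 and 0.00385). It had 139.0, 132.0 and 147.9 CPM in EpiLC KO against 250.7, 288.8 and 262.9 CPM in naive KO, and 143.2, 222.5 and 152.1 CPM in EpiLC WT against 228.2, 305.6 and 274.9 CPM in naive WT. In WT clones the margin between the cultures was narrow, 222.5 CPM in EpiLC replicate 2 and 228.2 CPM in naive replicate 1. Atp6v1b2, the B subunit, fell in both (-0.71 ± 0.088 in KO clones and -0.51 ± 0.0878 in WT clones, adjusted p 2.48e-05 and 0.000358). Atp6v0a1, of the membrane sector, fell in KO clones (-0.46 ± 0.13, adjusted p 0.00866, and 0.0564 without naive KO replicate 2) and gave -0.05 ± 0.13 in WT clones (adjusted p 0.742). Atp6v1h, the regulatory H subunit, rose in WT clones (0.30 ± 0.104, adjusted p 0.0265) and gave 0.18 ± 0.103 in KO clones (adjusted p 0.163). Its call in WT clones ended without naive WT replicate 1, naive WT replicate 2 or EpiLC WT replicate 2, with adjusted p of 0.0878, 0.112 and 0.111, and also with no filter on low counts (0.0864) and with only the groups contrasted in the fit (0.0786). When each library was corrected for its trend with GC content it gave 0.79 in WT clones, and 0.45 in KO clones (adjusted p 0.00718).

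The core of mTORC1 and its GTPases moved little or upwards, and 0 of these 5 genes fell. Rragd, the GTPase RagD, had 133.9, 140.2 and 169.7 CPM in EpiLC KO against 73.1, 83 and 93.8 CPM in naive KO, and rose 1.78-fold (0.83 ± 0.305, edgeR adjusted p 0.0349). In WT clones it had 205.5, 66.6 and 174.3 CPM in EpiLCs against 75.7, 53.2 and 76.6 CPM in naive cells, and rose 2.17-fold (1.12 ± 0.307, adjusted p 0.00814). The groups overlapped in WT through EpiLC replicate 2 at 66.6 CPM, and without that library the WT log2 fold change was 1.47. In KO clones the call ended without any 1 library other than naive KO replicate 3, with adjusted p between 0.0502 and 0.102.

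Rheb rose in KO clones (0.29 ± 0.0906, edgeR adjusted p 0.0159, 0.0766 without EpiLC KO replicate 3 and 0.116 with no filter on low counts) and gave 0.19 ± 0.0907 in WT clones (adjusted p 0.0901, and 0.0309 with the GC trend removed). It had 90.6, 89.2 and 104.5 CPM in EpiLC KO against 78.6, 79.7 and 74.3 CPM in naive KO. Rragc, RagC, rose in KO clones (0.27 ± 0.104, adjusted p 0.0436), a call that ended without any 1 of the 6 KO libraries (0.0549 to 0.165), with no filter (0.21) and with the GC trend removed (0.0559), and gave -0.00 ± 0.104 in WT clones (adjusted p 0.985). Mtor, the kinase itself, rose in WT clones by 0.24 ± 0.0892 (adjusted p 0.0381), with 151.7, 130.2 and 149.5 CPM in EpiLC WT against 128.7, 117.5 and 119.3 CPM in naive WT. That call held only without EpiLC WT replicate 2 among the 6 libraries left out in turn, and otherwise the adjusted p lay between 0.0532 and 0.145; it also ended with no filter (0.147) and with only the groups contrasted (0.0828). Mtor gave 0.15 ± 0.0891 in KO clones (adjusted p 0.184). Rptor, the scaffold raptor, passed in neither genotype (-0.16 ± 0.112 and -0.07 ± 0.112).

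The brakes and sensors were mixed. Fnip1, a partner of folliculin, had 28.2, 22.5 and 23.4 CPM in EpiLC KO against 65.6, 71.1 and 63.5 CPM in naive KO, and 10.5, 27.4 and 16.2 CPM in EpiLC WT against 46.3, 52.1 and 61.6 CPM in naive WT. It fell 2.7-fold in KO clones (-1.43 ± 0.259, edgeR adjusted p 0.000466) and 2.97-fold in WT clones (-1.57 ± 0.262, adjusted p 0.000284). Flcn, folliculin, fell in both (-0.80 ± 0.133 in KO clones and -0.54 ± 0.133 in WT clones, adjusted p 0.00026 and 0.00407), with 41.9, 42.7 and 44.6 CPM in EpiLC KO against 77.2, 73 and 74 CPM in naive KO, and 49.3, 37.3 and 43.5 CPM in EpiLC WT against 67.1, 51.1 and 71.5 CPM in naive WT. Fnip2 passed in neither (-0.09 ± 0.131 in KO clones and 0.18 ± 0.132 in WT clones). Of the RPKM of both partners, Fnip1 made up 26.7% ± 2.04 in EpiLC KO and 48.2% ± 2.9 in naive KO, and 20.2% ± 8.32 in EpiLC WT and 46.5% ± 3.76 in naive WT (SD, n = 3).

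Castor1, the arginine sensor, rose by 0.62 ± 0.189 in KO clones and by 0.71 ± 0.189 in WT clones (edgeR adjusted p 0.0135 and 0.00711). It had 44.8, 48.3 and 48 CPM in EpiLC KO against 30.9, 22.8 and 38 CPM in naive KO, and 66.3, 60.5 and 54.7 CPM in EpiLC WT against 43.7, 27.8 and 39.8 CPM in naive WT. Tsc1 and Tsc2, which together form the brake on RHEB, fell in KO clones (-0.48 ± 0.105 and -0.37 ± 0.0898, adjusted p 0.00174 and 0.00361). In WT clones Tsc1 gave -0.23 ± 0.105 (adjusted p 0.0829, and 0.0466 without EpiLC WT replicate 3) and Tsc2 gave -0.01 ± 0.0897 (adjusted p 0.93). Of the sestrins, Sesn3 rose in WT clones (0.44 ± 0.163, adjusted p 0.0361), a call lost without naive WT replicate 1, naive WT replicate 2 or EpiLC WT replicate 3 (0.133, 0.143 and 0.205) or with only the groups contrasted (0.0904), and gave 0.21 ± 0.163 in KO clones. Sesn1 passed in neither (-0.24 ± 0.154 and -0.14 ± 0.154).

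**Figure D3:**
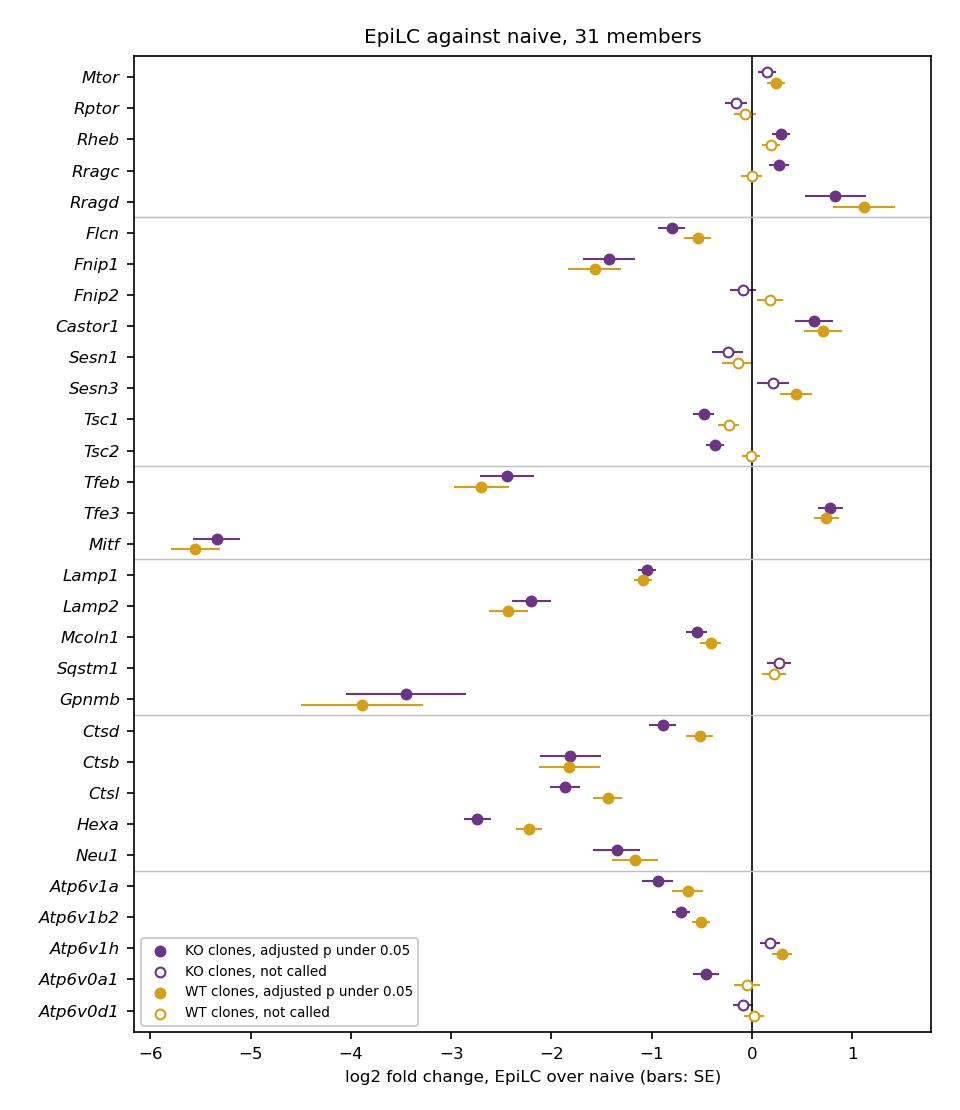
Points give the log2 fold change of EpiLC over naive for each of the 31 genes with bars for the SE (n = 3 libraries per group), filled where the edgeR adjusted p was under 0.05. Mitf lies at -5.34 in KO clones and -5.55 in WT clones, the 5 hydrolases lie left of zero in both, and Tfe3, Rragd and Castor1 lie right of it.

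The genes around these members, from lists that hold no member, were counted in the same fit. Of 39 other lysosomal hydrolases and cofactors tested, 25 fell and 3 rose in KO clones (25 and 5 with the clone as a block), and 24 fell and 3 rose in WT clones. Ctsa, the protective protein for beta-galactosidase and sialidase, fell in both (-2.42 ± 0.0888 in KO clones and -2.23 ± 0.0881 in WT clones, edgeR adjusted p 1.37e-09 and 2.27e-09). Npc2, which hands cholesterol out of the lysosome, fell in both (-1.91 ± 0.107 in KO clones and -1.60 ± 0.106 in WT clones, adjusted p 3.48e-08 and 1.62e-07). Of 19 other lysosomal membrane proteins 12 fell and 0 rose in KO clones, and 11 fell and 2 rose in WT clones, with the tetraspanin Cd63 at -1.54 ± 0.137 and -1.38 ± 0.136. Of 17 other V-ATPase genes tested, 11 fell and 1 rose in KO clones and 10 fell and 2 rose in WT clones. Among them the accessory subunit Atp6ap2, also known as the prorenin receptor, fell in both (-1.52 ± 0.137 in KO clones and -1.57 ± 0.137 in WT clones).

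Autophagy genes followed a like count, with 18 falls and 3 rises among 33 in KO clones and 15 falls and 2 rises in WT clones (16 and 4 with the clone as a block). Ulk1, the kinase that starts autophagy and is restrained by mTORC1, fell in both (-2.46 ± 0.195 in KO clones and -2.47 ± 0.195 in WT clones, edgeR adjusted p 6.01e-07 and 6.73e-07), and Optn, the receptor optineurin, rose by 3.59 ± 0.312 and by 3.60 ± 0.311 (adjusted p 1.29e-06 and 1.39e-06). The 31 other mTORC1 partners and nutrient sensors gave 5 falls and 5 rises in KO clones, and 4 falls and 8 rises in WT clones. Without EpiLC WT replicate 2 the counts for WT clones were 5 falls and 12 rises. Close relatives of members were among the rises: Rragb, RagB, rose by 3.21 ± 0.454 and by 2.15 ± 0.43, and Castor2 by 2.54 ± 0.257 and by 2.10 ± 0.252. By RPKM, Rragb made up 36.8% ± 1.47 of RagA and RagB transcripts in EpiLC KO and 6.69% ± 2.41 in naive KO, and 42.5% ± 3.26 in EpiLC WT and 14.5% ± 8.32 in naive WT (SD, n = 3). The bar plot of the lists sets these shares beside all genes.

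**Figure D4:**
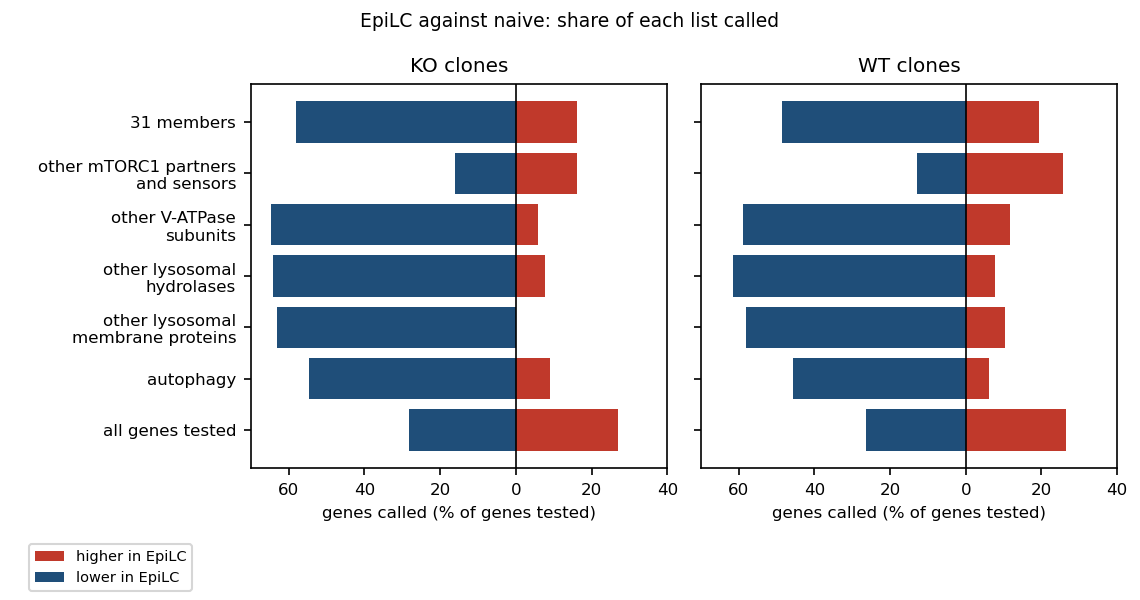
Bars give the percentage of each list that was called higher (right, red) or lower (left, blue) in EpiLCs than in naive cells, with KO clones in the left panel and WT clones in the right. The 4 lysosome and autophagy lists other than the members show between 45.5% and 64.7% lower genes, against 28.1% and 26.3% of all genes tested.

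Few of the 31 genes differed between KO and WT clones. In naive cells 1 gene rose and 0 fell, where 4.27% of all genes tested rose, 4.95% fell and 9.23% were called in either direction. In EpiLCs 2 genes rose and 2 fell, where 7.22% of all genes rose, 7.86% fell and 15.1% were called in either direction. The members' shares, 3.23% in naive cells and 12.9% in EpiLCs, did not exceed these backgrounds. Their median log2 fold change was 0.08 in naive cells and -0.01 in EpiLCs, and over all genes it was 0.00 in both. The endoderm markers and EpiLC WT replicate 2 described above stand beside the EpiLC values, and the part of the endoderm markers in them was not tested.

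Mcoln1 was the member called in both cultures. In naive cells it had 71.8, 70.5 and 59.5 CPM in KO against 45.5, 51.8 and 46 CPM in WT, and in EpiLCs 49, 45.2 and 43.7 CPM in KO against 35.9, 35.7 and 36.5 CPM in WT. KO and WT libraries did not overlap in either culture. It rose 1.41-fold in naive KO (0.49 ± 0.104, edgeR adjusted p 0.0115) and 1.28-fold in EpiLC KO (0.35 ± 0.104, adjusted p 0.0401). The naive call ended without naive WT replicate 1 (adjusted p 0.0595), naive WT replicate 3 (0.0661), naive KO replicate 1 (0.0804) or naive KO replicate 2 (0.0552), and the EpiLC call ended without any 1 of the 6 EpiLC libraries (0.0619 to 0.145), with no filter (0.163) or with only the groups contrasted (0.07).

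Lamp1 rose 1.26-fold in EpiLC KO, where it had 351.9, 296.5 and 353.4 CPM against 270.6, 258.6 and 264.1 CPM in EpiLC WT (0.34 ± 0.0894, edgeR adjusted p 0.0251). In naive cells all 3 KO libraries were also above all 3 WT libraries, and the gene missed the threshold (0.30 ± 0.0892, adjusted p 0.0544), which it passed with DESeq2 (0.035) and with the GC trend removed (0.0441). The EpiLC call ended without EpiLC WT replicate 3 (0.069), EpiLC KO replicate 1 (0.0953) or EpiLC KO replicate 3 (0.0863), or with only the groups contrasted (0.0525). Grtp1, an antisense neighbour that shares 9.31% of the exon bases of Lamp1, went the other way (-0.61 ± 0.142 in naive cells and -0.46 ± 0.143 in EpiLCs, edgeR adjusted p 0.019 and 0.0483). The 50 nearest expressed genes of Lamp1 had a median log2 fold change of 0.17 in EpiLCs and 0.12 in naive cells. For Mcoln1, with 28 such genes, the median was 0.01 in both cultures. The part of the neighbourhood in the Lamp1 values was not tested.

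Ctsl fell 1.56-fold in EpiLC KO, with 99, 87 and 74 CPM against 127.6, 146.3 and 132.5 CPM in EpiLC WT (-0.64 ± 0.146, edgeR adjusted p 0.0121). The groups did not overlap, and this call held when any library was left out (adjusted p of 0.0487 at most over 13 alternatives). In naive cells Ctsl gave -0.23 ± 0.144 (adjusted p 0.361). Tsc2 fell 1.27-fold in EpiLC KO, with 130.2, 150.8 and 124.9 CPM against 180.7, 175.7 and 161.0 CPM in EpiLC WT (-0.35 ± 0.0898, adjusted p 0.0217), and gave 0.01 ± 0.0896 in naive cells. Tsc2 shares 7.2% of its exon bases with the antisense gene Pkd1. The 50 nearest expressed genes of Tsc2 had a median log2 fold change of -0.19 in EpiLCs, and their part in its fall was not tested. Those of Ctsl had a median of 0.19, opposite to the fall of Ctsl. The Tsc2 call ended without EpiLC WT replicate 1 (0.0617), EpiLC KO replicate 1 (0.0835) or EpiLC KO replicate 3 (0.0809) and with only the groups contrasted (0.0895), and when the GC trend of each library was removed its value was -0.20 (adjusted p 0.128).

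The transcription factors and the pump did not pass between genotypes, apart from the settings named below. Mitf had 94.4, 78.1 and 104.9 CPM in naive KO against 67.4, 63.2 and 74.5 CPM in naive WT (0.44 ± 0.193, edgeR adjusted p 0.192), and 0.65 ± 0.244 in EpiLCs (adjusted p 0.0941, which was 0.041 with no filter and 0.016 without EpiLC KO replicate 2). Tfe3 gave -0.23 ± 0.123 in naive cells and -0.18 ± 0.123 in EpiLCs, and Tfeb -0.11 ± 0.252 and 0.15 ± 0.264. Ctsd, at 229.1, 208.7 and 225.1 CPM in naive KO against 150.9, 179.0 and 159.8 CPM in naive WT, missed the threshold in naive cells (0.44 ± 0.134, adjusted p 0.0603) and passed there in 4 other settings (0.0193 to 0.0467). Of the V-ATPase genes, Atp6v1b2 gave 0.27 ± 0.0876 (adjusted p 0.0717, and 0.049 with the GC trend removed) and Atp6v1h 0.30 ± 0.104 (adjusted p 0.0973) in naive cells. In EpiLCs Atp6v1a gave -0.45 with the GC trend removed (adjusted p 0.0486) and did not pass otherwise. Fnip1 gave 0.46 ± 0.258 in EpiLCs (adjusted p 0.254), and without EpiLC WT replicate 2 it gave 0.89 (adjusted p 0.00876). Hexa and Tfe3 likewise passed in EpiLCs without that library (-0.37 and -0.32, adjusted p 0.0345 and 0.0489).

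**Figure D5:**
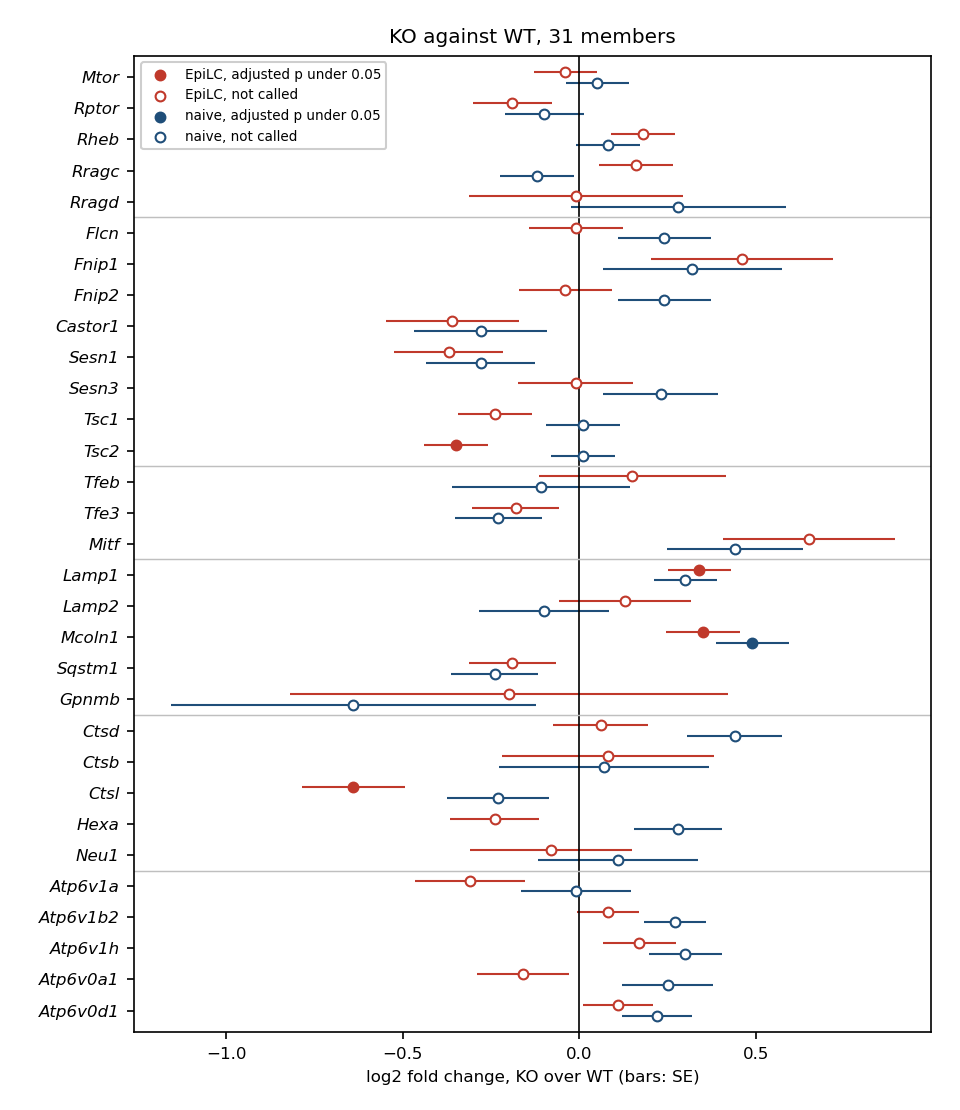
Points give the log2 fold change of KO over WT for each of the 31 genes in EpiLCs (red) and naive cells (blue) with bars for the SE (n = 3 libraries per group), filled where the edgeR adjusted p was under 0.05. Filled points are Mcoln1 in both cultures and Lamp1, Ctsl and Tsc2 in EpiLCs, with values between -0.64 and 0.49.

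Of the 39 other lysosomal hydrolases tested, 7 fell (17.9%) and 1 rose in naive KO, and 9 fell (23.1%) and 2 rose in EpiLC KO, where 4.95% and 7.86% of all genes fell in these cultures. Man2b1, the lysosomal alpha-mannosidase, fell in both (-1.01 ± 0.123 in naive cells and -0.91 ± 0.123 in EpiLCs, edgeR adjusted p 0.000495 and 0.00075). Lipa, lysosomal acid lipase, fell in naive cells (-1.12 ± 0.204, adjusted p 0.00537). In EpiLCs Gusb, beta-glucuronidase, fell (-1.25 ± 0.211, adjusted p 0.0028). Of the 17 other V-ATPase genes 1 rose in naive cells. In EpiLCs 0 were called by the main edgeR fit or DESeq2, with 3 at an unadjusted edgeR p under 0.05. In EpiLCs 1 fell without EpiLC WT replicate 2, and 1 fell with the GC trend removed. Of the 19 other membrane proteins 3 rose and 2 fell in naive cells and 1 fell in EpiLCs. Of 33 autophagy genes 1 fell in naive cells (3.03%) and 3 fell in EpiLCs (9.09%), near the shares over all genes. Of the other mTORC1 partners 1 rose and 1 fell in naive cells, and 1 rose and 4 fell in EpiLCs. The 1 fall in naive cells was Rps6kb2. With the GC trend removed 0 fell there, so that its naive call was lost, and with DESeq2 5 fell. Rps6kb2, an S6 kinase, fell in both (-0.54 ± 0.143 in naive cells and -0.96 ± 0.146 in EpiLCs, adjusted p 0.0332 and 0.00145), and Eif4ebp1, the translation repressor that mTORC1 inactivates, fell in EpiLCs (-0.76 ± 0.152, adjusted p 0.00667). ATF4 is a transcription factor of amino acid stress that also responds to mTORC1. Of 24 listed genes, its targets and Atf4 itself, 3 fell in naive cells and 17 in EpiLCs, with 0 rises. Atf4 was among the falls in EpiLCs (-1.66 ± 0.172, edgeR adjusted p 0.000172). With the GC trend removed 1 of the 24 fell in naive cells and 17 in EpiLCs. Of the stress genes, the heat shock genes Hspa1a and Hspa1b fell in naive KO (-1.89 ± 0.515 and -1.16 ± 0.263, edgeR adjusted p 0.0383 and 0.0169). Hspa1a had few counts, with 0.0557 to 0.123 CPM in naive KO and 0.224 to 0.505 CPM in naive WT. Among the 9 stress genes in naive cells DESeq2 called 1 fall and 1 rise, and with the GC trend removed 1 fell and 0 rose.

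The difference between the genotypes in the response to EpiLC culture was tested as an interaction, and 0 of the 31 genes passed, where 0.381% of all genes did. In edgeR 3 members had an unadjusted p under 0.05: Hexa (-0.52 ± 0.177, adjusted p 0.235), Tsc2 (-0.36 ± 0.127, adjusted p 0.252) and Atp6v0a1 (-0.41 ± 0.183, adjusted p 0.389). DESeq2 likewise called 0 members, with 2 at an unadjusted p under 0.05. On simulated counts the fit missed many of the smaller interactions, so the count of 0 says little about small differences. The genes called in 1 genotype alone, such as Tsc1, Rheb and Mtor, are therefore not shown to differ between genotypes. The median interaction of the members was -0.11, against -0.01 over all genes.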

How the data were processed

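Polyadenylated RNA of 12 libraries (TruSeq Stranded mRNA, per the labels' protocols) was counted per gene. The deposited values are raw counts, which the authors made by running featureCounts 2.0.1, per the file headers, against gene models of GENCODE vM25 (GRCm38). The command in the header sets no strand, overlap or multi-mapping option, so that under the defaults strand was not used and reads in exons shared by genes were not counted. The submitters' processing notes also name fastp, FastQC, STAR and DESeq2, whose versions are not given in the sources used here.

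The 31 members and all gene lists were chosen with earlier results of these data known. Symbols were matched for all but 346 of 55487 genes, which hold at most 0.0312% of the counts of a library. Counts were filtered with edgeR's filterByExpr (minimum count 10, minimum total 15), scaled by TMM and fitted with edgeR 4.0.16 (limma 3.58.1, R 4.3.3) by quasi-likelihood over 12 libraries in 4 groups, with 8 residual degrees of freedom and 5 contrasts. Standard errors are the log2 fold change over the square root of F. RPKM used the exon length in the file. Tables and figures were made with Python 3.11.15, pandas 2.3.3, numpy 2.4.6 and matplotlib 3.10.9. The fit was tested on simulated counts, where it recovered most changed genes in every contrast but fewer of the smaller interactions, for which no minimum recovery was required. The simulation gave every gene the same relative spread beyond counting noise and held no clone effect. Its recovery therefore does not carry over to members with a wider spread between clones. The clones are described as independent. The main fit took the naive and EpiLC libraries of a clone as separate, and its p-values rest on the spread between libraries within the 4 groups. The clone entered as a block only in an alternative.

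Replicate numbers paired naive and EpiLC libraries of one genotype: the labels number both alike, and deviations from the group means correlated with r between 0.201 and 0.316 in all 6 same-numbered pairs. Between genotypes r lay between -0.316 and 0.0209, so the numbers pair no KO clone with a WT clone. Text names all 31 members, Pcbp1, up to 4 called genes of each list with the smallest adjusted p in a contrast, cell type markers and genes that overlap members. Alternatives were RLE size factors, no filter, a mean CPM of at least 1, DESeq2 1.42.0, the replicate block, only the groups contrasted, each library left out, an 8-base motif and, chosen after seeing the data, removal of the GC trend of each library.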

Additional observations from a re-analysis of the deposited data

Results flagged for a closer look

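Pla2g15, a lysosomal phospholipase from the list of other hydrolases, had a KO effect that differed between the cultures by the interaction term (-1.08, edgeR adjusted p 0.0425). It had 4.59, 3.62 and 3.83 CPM in EpiLC KO against 14.5, 13.3 and 14.1 CPM in EpiLC WT, and 21.9, 23.6 and 18.2 CPM in naive KO against 34.2, 34.2 and 36.5 CPM in naive WT. The log2 fold change of KO over WT was -1.80 ± 0.146 in EpiLCs and -0.72 ± 0.138 in naive cells (SE, n = 3 clones per group). In the main edgeR fit it was the 1 gene called among the lysosome, V-ATPase, autophagy and mTORC1 lists. With the replicate block edgeR also called 1 fall among the other mTORC1 partners. DESeq2 called 1 rise and 3 falls among the other hydrolases, Pla2g15 included, 1 rise among the other membrane proteins and 1 fall among the other mTORC1 partners. The call of Pla2g15 held with DESeq2 (adjusted p 2.81e-05) and with the replicate block (0.0374). It ended with the GC trend removed (0.0526), and it ended without any 1 library (0.0787 to 0.151) other than naive KO replicate 3 (0.0324) and EpiLC WT replicate 2 (0.0336).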

How the results depend on the processing

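The number of members called between KO and WT clones in naive cells was 1. It was 2 with no filter on low counts, 3 with DESeq2, 2 with only the groups contrasted and 4 after correcting libraries for GC content, which was added after seeing the data; without 1 library it was 0 to 1. In EpiLCs the number was 4, and it was 1 with only the groups contrasted and 1 to 6 without 1 library, where the highest value came without EpiLC WT replicate 2. For EpiLC against naive the number was 23 in KO clones (20 to 22 without 1 library) and 21 in WT clones (18 to 20). The interaction gave 0 members in every alternative run. The replicate block gave 1 and 4 members between genotypes and 24 and 21 between cultures, and the call of Sqstm1 in KO clones was the one it changed among the members. Between genotypes the block is the replicate number, which pairs no KO clone with a WT clone. There, in naive cells, it gave 1 rise in place of 3 among the other membrane proteins. Among the other V-ATPase genes it gave 0 in place of 1. In EpiLCs it gave 1 rise in place of 2 among the other hydrolases and 0 in place of 1 among the other mTORC1 partners. It also gave 1 rise in place of 0 among autophagy genes and 16 falls in place of 17 among Atf4 and its targets. The motif count was 9 with 6 bases and 4 with 8 bases. Of all values of single members recomputed, 2051 kept their side of the threshold and, if not called, stayed within 1 standard error, 53 lost the threshold, 19 passed it and 47 moved further than that. Of 656 values called in the analysis as reported or in the alternative 0 changed sign, and of 1514 called in neither 100 did, as Rptor between genotypes in naive cells (-0.10, and 0.04 with the GC trend removed). Depth limits Mitf and Gpnmb in EpiLCs, which had few counts there, and the cause of the changes above was not tested.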
